A study of Betula luminifera with 2 samples.

Results

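The microRNAs (miRNAs) miR162, miR168 and miR403 were examined in seedlings of a timber birch, Betula luminifera. Members were the entries matched to miRBase, the public miRNA registry, named for one of these families, together with every degradome alignment of such an entry. The rule took 6 of 569 entries of the small RNA table, which were 6 of its 505 distinct sequences, and 1 of 108 degradome alignments. All samples came from clone G49#, as 2-month-old tissue culture seedlings with no treatment named, and RNA from roots, stems and leaves was pooled in equal amounts. One library of small RNAs and one of degradome ends were made, so no tissue or condition could be compared, no replicate spread could be measured and no test between samples was made. Fewer cells that hold a miRNA and less of it per cell cannot be told apart in such a pool.

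In plants these families act on the silencing machinery itself. miR162 targets the mRNA of DICER-LIKE1, the enzyme that cuts miRNAs out of their hairpins, and miR168 targets that of ARGONAUTE1, the protein that carries most miRNAs to their targets. miR403 targets ARGONAUTE2, which takes part in antiviral defence. These roles were worked out mainly in Arabidopsis thaliana. A plant miRNA is cut as a duplex from a hairpin, and usually the strand of one arm is kept as the guide while that of the opposite arm is degraded.

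The 6 sequences are shown because they are all that the small RNA table lists for these families. They are written 5′ to 3′ in the DNA letters of the table, under the name given there, with the seed, bases 2 to 8, in capitals. The species prefix names the plant of the miRBase entry matched (gma soybean, osa rice, ccl clementine, mtr Medicago truncatula, ppe peach).
gma-miR162a_R+1: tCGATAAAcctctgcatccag
osa-miR162a_R+3: tCGATAAAcctctgcatccagttt
gma-MIR162b-p5: gGAGGCAGcggttcatcgatc
ccl-miR168: tCGCTTGGtgcaggtcgggaa
mtr-miR168c-3p: cCCGCCTTgcatcaactgaat
ppe-miR403_1ss4GN: tTANATTCacgcacaaactcg
The first and second lines share a seed, and no other sequence of the table has it. The seeds of gma-MIR162b-p5, ccl-miR168 and mtr-miR168c-3p each belonged to 1 listed sequence alone. For miR403 this could not be judged, because its seed holds an uncalled base (N) that no fully called seed can equal. Outside its own family, no sequence of the table shared 15 or more consecutive bases with a member on either strand, and the longest shared stretch was 9 nt.

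The guide of miR168 had 855 reads. Its opposite arm, mtr-miR168c-3p, had 62 reads. The guide of miR162, gma-miR162a_R+1, had 321 reads. The opposite arm of its hairpin, gma-MIR162b-p5, had 37 reads, and the 24-nt form of the guide had 15. miR403 was listed as a single sequence with 34 reads. Each family therefore had one sequence with most or all of its reads, and for miR162 and miR168 the second one was the opposite arm. All 6 members had whole numbers of reads and at least 10 of them, which 47.5% of the 179 distinct matched sequences reached. Their median was 49.5 reads, against 9 over all matched sequences. Because the families were picked with their reads known, this describes them and tests nothing.

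**Figure D1:**
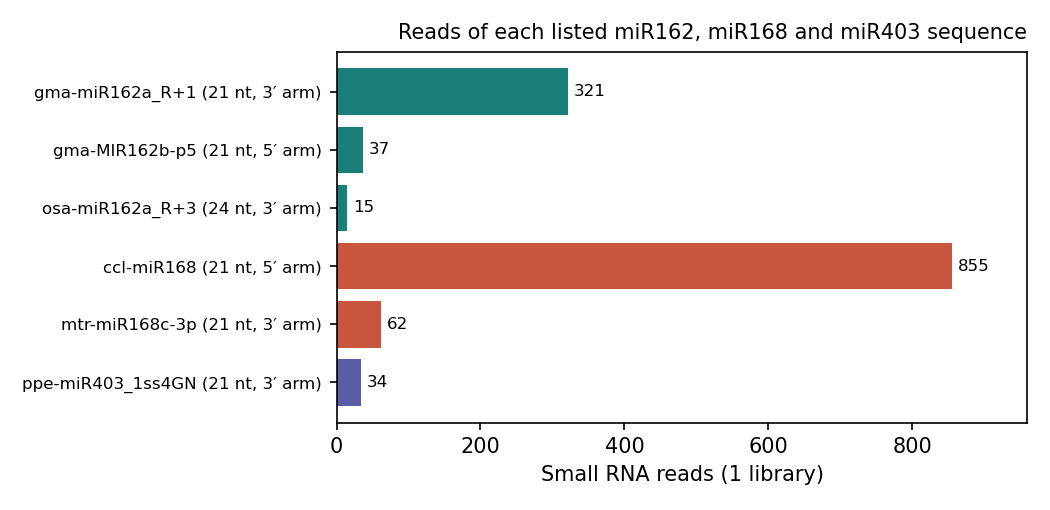
Bars give the reads of each listed sequence on a linear axis that starts at 0, coloured by family, from 1 library without replicates. The miR168 guide with 855 reads stands above the miR162 guide with 321, and every other sequence has 62 reads or fewer.

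Of the 6 members, 5 were 21 nt long and 4 began with uracil, the first base that ARGONAUTE1 prefers in Arabidopsis. Over all 179 matched sequences, the shares were 45.8% and 57.5%. The guide strands of the families all began with uracil (T in the table). Neither opposite arm did, since gma-MIR162b-p5 began with G and mtr-miR168c-3p with C.

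As families, miR168 had 917 reads, miR162 had 373 and miR403 had 34. These were 0.151% (exact binomial interval at 95%, 0.141 to 0.161%), 0.0614% (0.0553 to 0.0679%) and 0.0056% (0.00388 to 0.00782%) of the 607592 listed reads. The intervals cover counting error only, since amplified reads that carry no molecular identifier need not stand for separate molecules. Together the families held 1324 reads or 0.218% (0.206 to 0.23%). A single miR166 sequence with 513486 reads took most of the listed reads and so largely sets how small these shares are. Reads of the library that are not listed do not enter these shares. miR168 exceeded miR162 2.46-fold and miR403 27-fold, while miR162 exceeded miR403 11-fold. In each of these pairs the family with more reads held more than an even share beyond counting error. For miR168 against miR162, for example, it was 71.1% of their joint reads (68.5 to 73.5%). Whether amplification or ligation favoured one sequence over another was not tested.

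Among the 84 matched families, whose median was 9 reads, miR168 ranked 13, miR162 ranked 16 and miR403 ranked 35. Among 30 families taken here as conserved in plants, with a median of 176 reads, their ranks were 11, 14 and 25. That set was picked for this report and includes miR162, miR168 and miR403 themselves, and miR894 with 17836 reads. In the order of all 84 families, those next to miR168, miR162 and miR403 did not differ from them beyond counting error. miR168 lay between miR171 with 991.8 reads and miR397 with 846 reads, and held 48% (45.8 to 50.3%) and 52% (49.7 to 54.4%) of the joint reads. For miR162 the neighbours were miR164 with 427 reads and miR5139 with 367.7, and its shares were 46.6% (43.1 to 50.2%) and 50.4% (46.7 to 54%). miR403 stood beside miR172 with 43 reads and miR535 with 20, and its shares were 44.2% (32.8 to 55.9%) and 63% (48.7 to 75.7%).

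Families known to start secondary small interfering RNAs in plants were taken for comparison. miR482 with miR2118 had 7027 reads, miR390 had 165, miR393 had 77 and miR828 had 1. miR168 and miR162 thus had fewer reads than miR482 and more than miR390, and miR403 lay between miR393 and miR828. The plot of reads per family places all of them on the same scale.

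**Figure D2:**
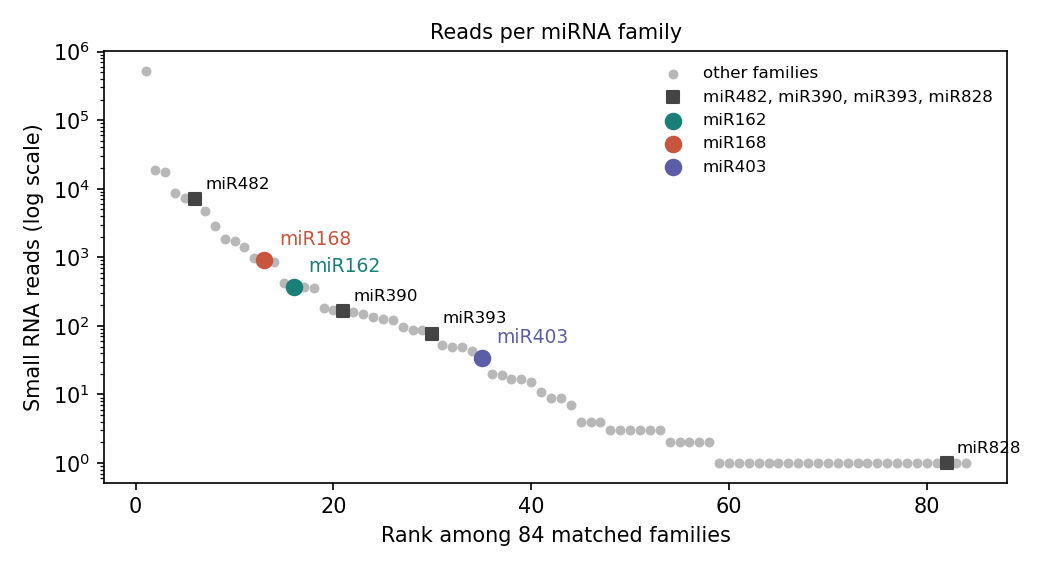
Points give reads per family on a log axis against the rank of the family among the 84 matched families, with tied families in arbitrary order. miR168 (917 reads) and miR162 (373) lie between miR482 (7027) and miR390 (165), and miR403 (34) lies below miR393 (77).

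miR162 was the one member family placed on the birch genome contigs. Both arms mapped to contig_72080, plus strand, positions 132 to 232, where the hairpin is 101 nt long. No gene annotation of the contig was used here. The precursor is shown 5′ to 3′ with the listed arms in capitals.
contig_72080:132-232: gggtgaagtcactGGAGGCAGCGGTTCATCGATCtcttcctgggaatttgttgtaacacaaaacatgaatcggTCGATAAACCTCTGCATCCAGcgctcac
The 5′ arm covers bases 14 to 34 of the precursor and the 3′ arm bases 74 to 94, with 39 bases between them. In the structure deposited by the authors, 16 base pairs join the arms, and both strands end in a 2-nt 3′ overhang. Such overhangs are the usual mark of a duplex cut by a Dicer-like enzyme. Folding the precursor again with RNAfold also gave 16 pairs between the arms and 2-nt overhangs.

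The arms were alike in birch and soybean. Both arms were listed because they matched these soybean entries, so their likeness follows from that choice and tests nothing. All 21 bases of each arm were identical to gma-MIR162b. Against gma-MIR162a, 21 bases of the 3′ arm and 20 of the 5′ arm were identical, and the difference was T4G, with the soybean base first and positions counted from the 5′ end of the arm. The stretch between the arms was identical in 77.8% of 45 alignment columns against gma-MIR162b and in 79.1% of 43 against gma-MIR162a. The birch guide matched gma-miR162a with 1 added base at its 3′ end, which the birch contig also has.

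The folding index of the file, which scales the folding energy by length and GC content, was 0.7 for the hairpin on contig_72080, from an energy of -36.4 kcal/mol. The median was 1 over 157 distinct matched precursors and also 1 over the 52 on a contig. An index of 0.7 or less was listed for 24 of the 157 and for 3 of the 52, so the MIR162 hairpin was among the lowest of those placed on a contig.

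**Figure D3:**
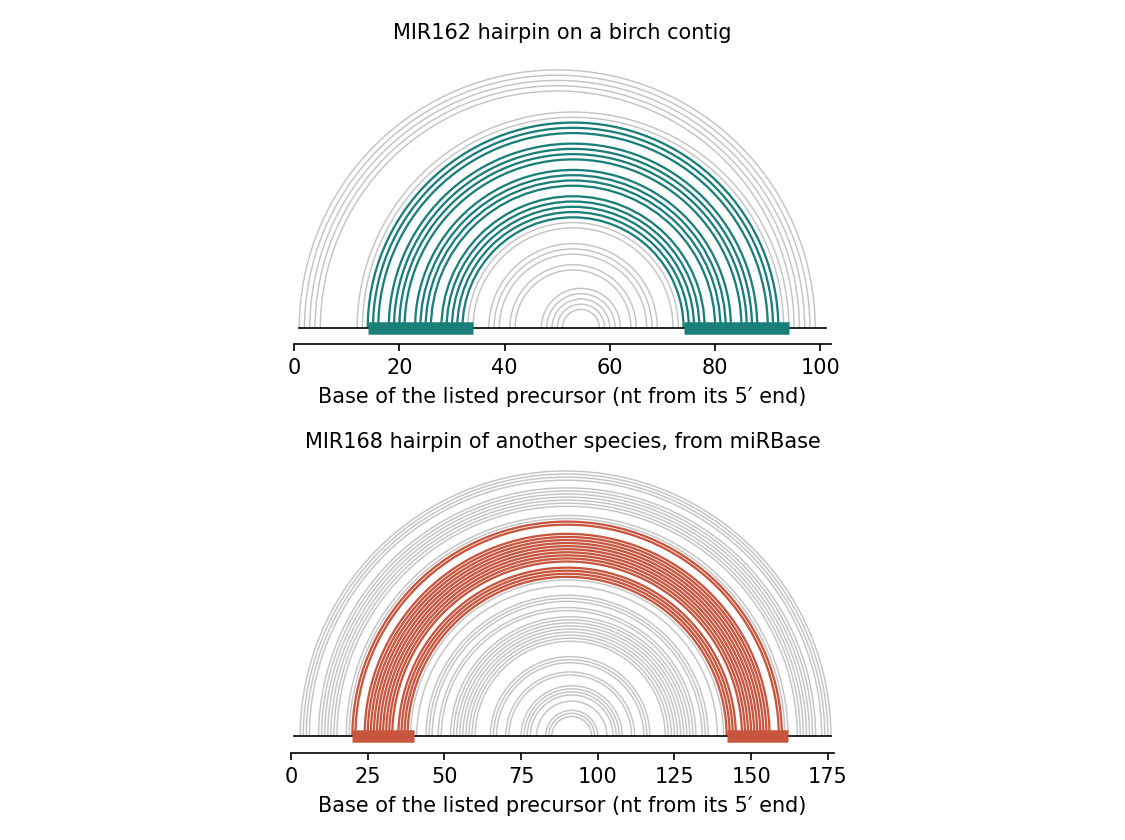
Arcs join the paired bases of the listed structures of the MIR162 precursor on contig_72080 (above) and of clementine MIR168 (below), along the precursor in nt from its 5′ end. Thick bars mark the listed arms and coloured arcs the 16 pairs between them in each structure, while grey arcs are all other pairs.

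The 24-nt form of miR162 differed from the contig at its 3′ end. Its first 21 bases are the guide, and the 3 bases after them are set in capitals here beside the contig at the same place, positions 205 to 228.
osa-miR162a_R+3: tcgataaacctctgcatccagTTT
contig_72080: tcgataaacctctgcatccagCGC
The differences were C22T, G23T and C24T, with the base of the contig first and positions counted from the 5′ end of the guide. Against the rice precursor osa-MIR162a, to which the table ties this form, the difference was C24T. Its reads did not map to the contigs, per the group definition in the file headers. Whether the added bases come from another copy of the gene or from the RNA after cutting was not tested. The form held 4.02% (2.27 to 6.55%) of the reads of its family.

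Added T stretches were found in other families too. Of 36 matched sequences that run past the 3′ end of their miRBase sequence, 15 did so by 2 or more bases, and 7 of these added T alone. In 5 of the 7 the added bases, taken as a whole, differed from those of the listed precursor, for which 1 unlike base is enough. The miR162 form is among them, with C24T alone against the rice precursor. The 3 with 3 or more added T were the miR162 form with 15 reads, bdi-miR398a_R+3 with 7 and mdm-miR408a_L-1R+4 with 2.25. The other precursors mostly come from other plants, as 1 of the 7 sequences was placed on a contig, so a comparison with birch sequence was at hand for few of them.

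miR168 was not placed on a contig, and its sequences were identical to miRBase entries. The table names 40 miRBase precursors from 27 species for it, against 31 from 15 species for miR403, and 7 from 6 and 9 from 8 species for the entries of miR162. The listed precursor, 176 nt long, is that of clementine. Both listed strands are found in it, at bases 20 to 40 and 142 to 162 with 101 bases between them. Here too the deposited structure had 16 pairs between arms and 2-nt 3′ overhangs at both ends, and RNAfold gave 17 pairs and the same overhangs. The folding index was 0.9. These values describe a clementine hairpin that holds both birch reads and not a birch precursor.

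The guide arm was the 5′ arm for miR168 and the 3′ arm for miR162. For miR168 it held 855 of 917 reads, 93.2% (91.4 to 94.8%) or 13.8-fold more than the other arm. For miR162, with both forms of the guide, it held 336 of 373 reads, 90.1% (86.6 to 92.9%) or 9.08-fold more than the other arm. These intervals overlap. Over the 25 families with reads on both arms, miR168 and miR162 among them, the median was 93.2%, which is the value of miR168 itself. The range was 50 to 99.8%, and its low end, the lowest share possible, was miR1878 with 1 of 2 reads. In this order miR168 ranked 13 and miR162 ranked 16.

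**Figure D4:**
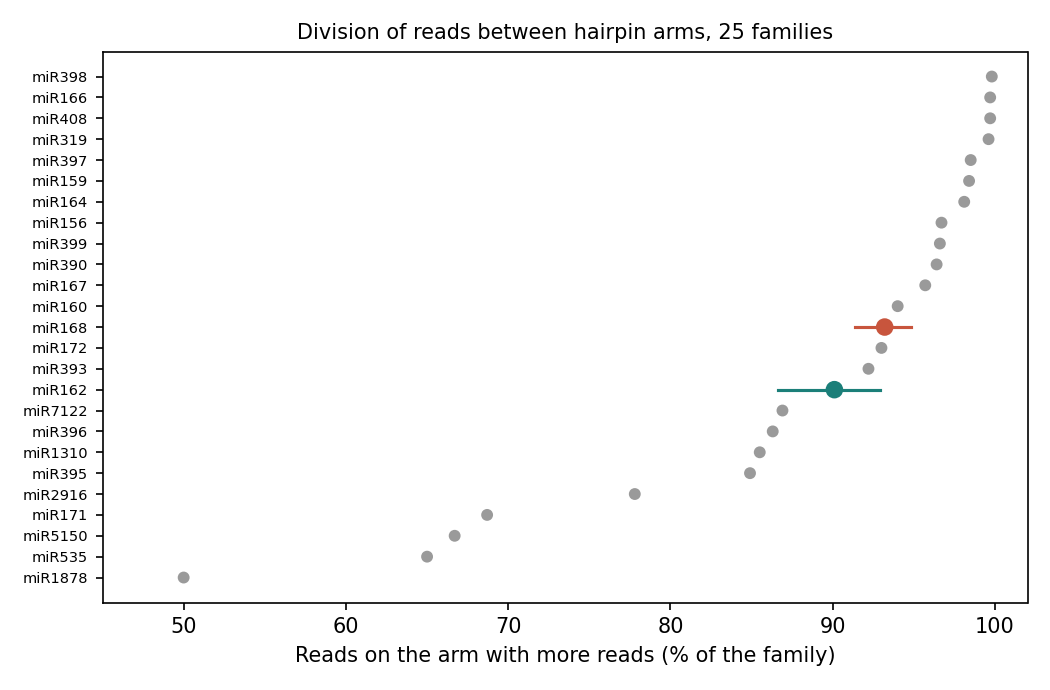
Points give the share of family reads on the arm with more reads for the 25 families with both arms listed, on an axis that starts at 45%. Lines for miR168 (93.2%) and miR162 (90.1%) are exact binomial intervals at 95%.

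miR403 was listed as the 3′ arm alone, with 34 reads and an uncalled base. It is shown beside the matched peach miRNA with the position in capitals.
ppe-miR403_1ss4GN: ttaNattcacgcacaaactcg
ppe-miR403: ttaGattcacgcacaaactcg
The difference was G4N, with the peach base first, and the other 20 bases were identical. The uncalled base lies in the seed, so the seed of birch miR403 was read at 6 of its 7 bases. Only 1 other sequence of the table had an uncalled base, cln-miR166_R-2_1ss1CN with 0.333 reads. Without sequences of this kind, miR403 would have 0 reads. No 5′ arm was listed. With 34 reads in the family, a count of 0 allows a share of up to 8.82% for it. The opposite arm of miR168, with 6.76% (5.22 to 8.58%) of its family, lay below this limit, so a count of 0 does not exclude an arm of that size. The opposite arm of miR162, with 9.92% (7.08 to 13.4%), lay above this limit of 3 counts, though its interval reaches below it. By the exact interval used for the other shares, the listed 3′ arm of miR403 held 89.7 to 100%. That leaves room for a 5′ arm of 9.92% as well, so a count of 0 does not exclude either size. The precursor tied to it, that of peach, is 118 nt long with a folding index of 0.9.

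The degradome library collects the 5′ ends of cut polyadenylated transcripts and asks which of them are cleaved at miRNA sites. In the authors' deposited table, miR162 had 0 targets, miR403 had 0 and miR168 had 1. A target was listed for 27.4% of the 84 matched families and for 60% of the 30 conserved ones. None of the guides of miR162, miR168 and miR403 had a listed target. The most-read sequence did for 15 of the 30 conserved families, a set that includes these families. The miR403 sequence has an uncalled base in its seed, and how the search for targets scored such a base was not analysed. Of the 16 families with at least the 373 reads of miR162, 6 had no listed target, miR162 among them. Among the families that start secondary small interfering RNAs, miR482 had 7 listed target transcripts, miR393 had 3, miR828 had 2 and miR390 had 0. The miR828 targets were listed although its miRNA had 1 small RNA read. The depth of the degradome library was not used here, and how deeply transcripts of DICER-LIKE1, ARGONAUTE1 or ARGONAUTE2 were covered was not analysed.

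The listed target of miR168 belonged to its opposite arm, mtr-miR168c-3p, and not to the guide. The site lies at positions 534 to 554 of Unigene456, an assembled transcript of 713 nt whose gene is not named in the files. It is shown 5′ to 3′ in the RNA letters of the table, with the base of the listed position in capitals, above the miRNA with bases 10 and 11 in capitals.
Unigene456 site: agcgaguugauGcaagguggg
mtr-miR168c-3p: cccgccuugCAucaacugaau
Base pairs were counted from the 5′ end of the miRNA. There were 17 Watson-Crick pairs, 1 G:U pair at base 4, and mismatches at bases 18, 19 and 20. The longest run of paired bases was 17. The listed position, 545, pairs with base 10 of the miRNA, so the cut would fall between bases 10 and 11, where plant ARGONAUTE proteins cut. All 84 alignments without gaps in the authors' deposited table had the same geometry, so it follows from how positions were listed. The alignment score in the authors' deposited table was 4, the highest value there and one that 34 of the 108 alignments had.

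Degradome support for this site was 1 read. Unigene456 had 25 reads at 7 positions. There were 14 reads at position 447, 6 at position 255 and 1 each at positions 18, 441, 534, 545 and 551. Reads at the listed position 545 were thus 4% of those on the transcript (0.101 to 20.4%), no more than at 4 other positions. The 21-nt site held 3 reads in all, at its first base, at the listed position and 6 nt beyond it. All 25 reads matched this transcript alone, if the columns, which have no header, were read rightly. The position with the most reads lay 98 nt before the listed one and held 56% (34.9 to 75.6%).

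**Figure D5:**
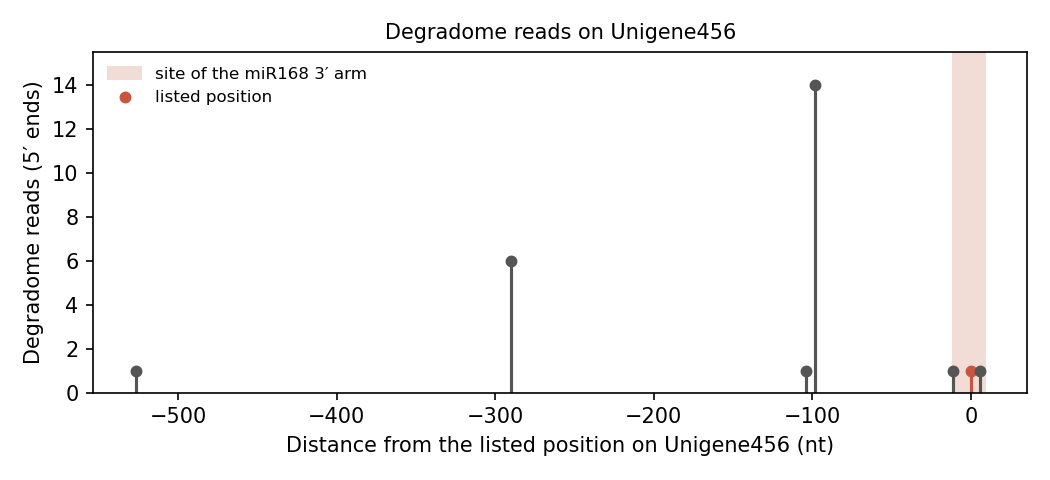
Stems give degradome reads by the position of their 5′ end on Unigene456, as the distance in nt from the listed miR168 position, with the site shaded. The listed position holds 1 read, against 14 reads 98 nt before it and 6 reads 290 nt before it.

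In the authors' deposited table the position was of category 4, with a p-value of 0.0209. Category 4 was given to 5 of the 69 distinct listed positions, and these were also the positions with 1 read. The median of all listed positions was 13 reads. Unigene456 was the transcript with rank 7 from the fewest reads among 64, whose median was 532 reads. At this depth 1 read at the listed position cannot be told from the single reads elsewhere on the transcript.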

How the data were processed

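Pooled total RNA of roots, stems and leaves went into a small RNA library (TruSeq Small RNA kit), and poly(A) RNA into a degradome library, per the labels' protocols. The aligner and the genome build are named neither in the labels nor in the file headers used here. Reads per entry of the small RNA table are raw, per the file headers. Since 115 of 569 values are not whole, the deposited values were read as estimated counts, in which the authors divided shared reads among entries. They were used unrounded except in the intervals, where counts were rounded to whole reads. Each entry stands for a read cluster, per the file headers, so end variants may be counted within it. The folding index (MFEI score), energy and GC percent are the authors' values. The degradome table gives, as the authors deposited them, read counts per position, a category score and a p-value, without a column header. The meaning of its columns was read from the values, and no definition of the categories was at hand.

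Reads were summed per distinct sequence and family, with miR157 merged into miR156, miR165 into miR166, miR170 into miR171 and miR2118 into miR482. Shares have exact (Clopper-Pearson) intervals at 95%, and a count of 0 allows 3 counts. The named items were all 6 sequences and the 1 alignment, by a rule that takes every member sequence with at least 10 reads and each with a listed target. Members and lists were chosen with earlier results of these data known. Stretches between arms were aligned globally (match 1, mismatch -1). Alternatives covered read minimum, denominators, contig placement, merging of variants, refolding, counting of degradome reads, and categories or p-values. The work used Python 3.11.15, NumPy 2.4.6, SciPy 1.17.1, Biopython 1.88, matplotlib 3.10.9 and RNAfold 2.7.2.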

Additional observations from a re-analysis of the deposited data

Results flagged for a closer look

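On Unigene456, the transcript listed for the opposite arm of miR168, position 447 drew attention because it held 14 of the 25 degradome reads although no listed miRNA is aligned there. It was of category 0 in the authors' deposited table, while the listed position 545 had 1 read and category 4. No control library was at hand. Unigene456 had 1 alignment in the table, so no listed miRNA is aligned at position 447, and where these ends come from was not tested.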

How the results depend on the processing

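Of 34 alternatives over 14 results, 26 stayed within the counting interval of the value or kept the same count, and 8 moved. Without the most-read listed sequence, the shares of listed reads were 0.396% for miR162, 0.974% for miR168 and 0.0361% for miR403, because the denominator fell. With sequences placed on a contig only, miR168 and miR403 had 0%, and miR162 had 0.0589%. Without sequences that have an uncalled base, an alternative chosen after seeing the data, miR403 had 0%. With sequences that share at least 18 nt merged, the share of the main miR162 sequence went from 86.1% to 90.1%, as the 24-nt form joined it. With category 0 or 1 only, miR168 had 0 listed targets in place of 1. Refolding left the folding indices within 0.05 of the listed ones. No paired analysis was possible because each kind of library has 1 sample. Depth limits what can be said of miR403, which had 34 reads, of the 24-nt miR162 form, which had 15, and of the Unigene456 position, which had 1.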
